A study of Mus musculus with 36 samples.

Results

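The ribosomal protein genes of the deposited mouse gene table were described across 9 groups of embryonic kidney progenitor cells. They were taken by name: a protein-coding gene called Rpl or Rps with a number, with or without one of the letters a, x, y or l and a further digit, together with Rplp0, Rplp1, Rplp2 and Rpsa. This rule found 84 of the 22761 genes in the table, 52 of the large subunit and 32 of the small subunit. The rule used no measured value. Each of the 9 groups held 4 samples of sorted cells, 36 libraries in all, and the question behind the design is how cells made from mouse embryonic stem (ES) cells differ from their embryonic equivalents. The ex-fetu groups were nephron progenitors (NP, which form the nephron epithelium), stromal progenitors (SP) and ureteric bud (UB, which branches into the collecting ducts) of CD1 mouse kidneys at E11.5 and at E12.5. The ES-derived groups were iNP and iSP, from the E14 line, and iUB, which the study calls eUB, from a line the labels name Sox9-mCherry (the study's text elsewhere describes a Sox8-mCherry line for these cells), so that each ES-derived type rests on 1 line. NP and iNP had been sorted as ITGA8-high, PDGFRA-low and SP and iSP as ITGA8-low, PDGFRA-high, after CD31, EpCAM and RET positive cells had been gated out, whereas UB had been sorted as RET and EpCAM positive and iUB as EpCAM and mCherry positive. A sample pooled the kidneys of all embryos of a mouse or the embryoid bodies of a single differentiation. The source of the cells, the mouse stock or ES line and the time in culture differ together between ex-fetu and ES-derived groups and cannot be told apart. For the ex-fetu UB samples the title and the stated cell source give opposite ages, and the titles were followed.

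A ribosome is built from a small subunit, which reads the mRNA, and a large subunit, which joins the amino acids, and nearly every ribosomal protein is present once in each particle. Their genes are therefore transcribed at high and similar rates in all growing cells. Their short mRNAs usually begin with a C followed by a run of pyrimidines (the 5′ terminal oligopyrimidine tract), through which growth signals acting via mTOR control their translation. The same genes have given rise to many retrotransposed copies, most of them pseudogenes, and a read from a stretch that gene and copy share cannot be assigned to either on sequence alone. In the table, 55 of the 84 genes had at least 1 gene of their own stem whose name holds -ps, 189 such genes in all, and up to 17 for a single ribosomal protein gene. Names do not list every copy. A BLAST search of the coding sequences found 440 table genes at least 95% identical over at least 80% of the coding length of a member, of which 302 carry no -ps name, and 74 of the 84 members had at least 1. The table held such a copy but no -ps gene for 19 members, while 51 of the -ps genes were less than 95% identical. Of the 440, 1, which overlaps its member on the genome, was left out of the copies below.

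Within the coding sequence, the bases in which a member and its copy differ are those by which reads tell them apart. Sequence outside the coding part, which may also differ, was not compared. Each pair below covers 60 bases of the coding sequence (GENCODE vM21 transcripts, GRCm38), with the bases that differ in capitals and positions counted from the A of the start codon. The copies were chosen after their values were seen, as those that differ most between ES-derived and ex-fetu cells. Rplp0, at chr5:115559467-115563727, encodes the scaffold of the ribosomal stalk. Its copy Gm8730, which the table lists as protein-coding, lies at chr8:102864845-102865798 and differs at 12 of 951 coding bases, with A390G, A393G and A447T in this stretch.
Rplp0: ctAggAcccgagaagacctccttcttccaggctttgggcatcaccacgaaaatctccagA
Gm8730: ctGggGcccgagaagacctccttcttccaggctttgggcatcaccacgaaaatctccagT
Rps3a1, at chr3:86137940-86142702, encodes a small-subunit protein, and the processed pseudogene Rps3a3, at chr13:108670603-108671397, differs from it at 8 of 791 aligned bases, with T216C and T260C shown.
Rps3a1: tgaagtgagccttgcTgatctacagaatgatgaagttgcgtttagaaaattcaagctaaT
Rps3a3: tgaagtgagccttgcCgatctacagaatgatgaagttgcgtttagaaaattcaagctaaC
Rps18, at chr17:33951999-33956001, and Gm10260, at chr13:97760072-97760632, differ at 4 of 456 bases, with A337C and G371A shown.
Rps18: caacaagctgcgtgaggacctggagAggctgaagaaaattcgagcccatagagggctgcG
Gm10260: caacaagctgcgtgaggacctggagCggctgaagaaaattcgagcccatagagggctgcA
Rpl26, at chr11:68901583-68906989, and Gm15772, at chr5:3236431-3236868, differ at 2 of 435 bases, and C177T is the difference shown.
Rpl26: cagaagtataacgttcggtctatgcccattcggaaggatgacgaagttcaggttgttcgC
Gm15772: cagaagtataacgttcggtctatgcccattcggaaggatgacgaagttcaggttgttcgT
Rps2, at chr17:24718116-24721929, and Rps2-ps13, at chrX:52898588-52899469, differ at 7 of 879 bases, with T60A and A84G shown.
Rps2: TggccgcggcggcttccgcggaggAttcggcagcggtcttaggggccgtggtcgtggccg
Rps2-ps13: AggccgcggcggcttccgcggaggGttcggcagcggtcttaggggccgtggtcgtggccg
Rps13, at chr7:116331505-116334195, differs from Rps13-ps1, at chr8:87047689-87048226, at 2 of 453 bases, both in this stretch as T411C and A429G, and from Rps13-ps2, at chr7:88530446-88530898, at none.
Rps13: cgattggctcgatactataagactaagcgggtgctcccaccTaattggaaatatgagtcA
Rps13-ps1: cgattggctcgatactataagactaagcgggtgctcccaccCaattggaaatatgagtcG
The longest stretch without a difference ran to 167 bases for Rplp0 and Gm8730, 215 for Rps3a1 and Rps3a3, 185 for Rps18 and Gm10260, 176 for Rpl26 and Gm15772, 302 for Rps2 and Rps2-ps13 and 410 for Rps13 and Rps13-ps1. The read length and the treatment of reads that match several places are not given in the sources used here.

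The promoters of the same genes show what the members share outside the name rule. RefSeq start sites (GRCm38.p6) were matched for 63 of the 84 members, and a window of 250 bases before to 50 after each start was searched on both strands for the letter strings, and around the start on the gene's strand for the pyrimidine tract. A gene with several annotated starts counted once, if any of its windows held the string. The string CCGGAAG, the core to which ETS factors such as GABPA bind, stood in 41.3% of the 63 matched members and in 9.85% of the other 26962 genes. AAGATGG, a YY1-type string, stood in 15.9% and 7.26%, and TATAAA, the core of the box bound by TBP, in 11.1% and 15.7%. A C at the annotated start followed by 4 pyrimidines was found in 20.6% of members and 2.97% of the other genes, and such a tract beginning within 5 bases of the start in 46.0% and 21.1%. These shares are descriptions of letters and not of binding. The 80 bases around the start (60 before and 20 from the start, gene strand) are given for some of the members that differ in the comparisons below, with the motif or the pyrimidine tract from the annotated start in capitals. A start base other than C, or a single capital C with no pyrimidines after it, says only how the annotation places the start.
Rps18, chr17:33955646-33955725, minus strand: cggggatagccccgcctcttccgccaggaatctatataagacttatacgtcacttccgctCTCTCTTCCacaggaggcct
Rpl35a, chr16:33056393-33056472, plus strand: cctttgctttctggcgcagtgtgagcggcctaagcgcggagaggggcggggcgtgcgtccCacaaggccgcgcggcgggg
Rpl26, chr11:68901506-68901585, plus strand: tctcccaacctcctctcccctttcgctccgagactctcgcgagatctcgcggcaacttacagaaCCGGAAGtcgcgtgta
Rps3a1, chr3:86142649-86142728, minus strand: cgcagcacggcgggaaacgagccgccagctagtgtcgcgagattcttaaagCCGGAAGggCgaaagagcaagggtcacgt
Rpl22l1, chr3:28805448-28805527, plus strand: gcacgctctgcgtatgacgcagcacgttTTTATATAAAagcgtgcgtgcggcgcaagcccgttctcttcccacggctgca
Rps18 has a tract of 9 pyrimidines from its start, Rpl26 and Rps3a1 hold the ETS-type string next to theirs, and Rpl22l1 holds the TBP-type string. Rplp0, Rps2 and Rps26 also differ below, and their stretches, not printed here, held none of these strings. Their pyrimidine tracts from the start were 0, 1 and 0 bases long.

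The libraries held between 13004352 and 52535113 reads on genes, and 3 reads, taken as the limit of detection, corresponded to between 0.0605 and 0.223 normalised CPM (reads scaled to a common library size). Values below are normalised CPM as deposited, and differences are on the log2(value + 1) scale. Each sorted type carried its own markers: the 7 UB markers summed to between 1729 and 3240 in the UB and iUB libraries and to at most 299 elsewhere, and the 6 SP markers to between 2079 and 3649 in the SP and iSP libraries and at most 1013 elsewhere. The 6 NP markers summed to between 1487 and 2553 in NP, to between 687 and 1057 in iNP and to at most 705 elsewhere, so that the lowest iNP library was no higher than the highest E12.5 UB library. Library 1 of E12.5 UB stood apart. It had the lowest sum of UB markers (1729) and, against the other E12.5 UB libraries, higher sums of SP markers (523, group median 193), of endothelial markers (78.6, median 5.05) and of pluripotency markers (24.3, median 0.651). It also held each of the 7 copies that were high in ES-derived cells at a level above all 11 other E12.5 libraries, for instance 20.6 for Rps13-ps1 against 0.0403 to 0.985. Counts of members called, and the differences of members alone named in its comparisons, are given with and without it. Differences with copies added are given only with this library in. The 4 haemoglobin genes in the table summed to between 266 and 2698 in E12.5 SP and between 67.4 and 1434 in E11.5 SP, against at most 80.4 in the NP and UB libraries and 0 in all iSP libraries. Macrophage markers summed to between 36.0 and 69.7 in the ex-fetu UB libraries and to at most 1.95 in all other groups. The sums of endothelial and pluripotency markers moved with the ES-derived comparisons, in iUB through a single gene of each list. The 5 endothelial markers summed to between 43.1 and 72.9 in iNP against 8.24 to 24.1 in E11.5 NP. They summed to between 30.3 and 47.1 in iSP against 14.6 to 37.3 in E11.5 SP, and to between 9.21 and 13.6 in iUB against 3.84 to 12.8 in E11.5 UB. In iUB only Tek was higher by group mean (9.79 against 0.283 in E11.5 UB). Pecam1 (0.153 against 1.67), Cdh5 (0.0 against 2.20), Kdr (1.43 against 1.93) and Emcn (0.0 against 0.778) were lower there. The 5 pluripotency markers summed to between 2.45 and 7.63 in the ES-derived libraries and to at most 1.28 in the E11.5 libraries. In iUB this sum was mostly Zfp42 (mean 2.54 against 0.126 in E11.5 UB). Pou5f1 (0.0371 against 0.111) and Esrrb (0.236 against 0.541) were lower in iUB, and the means of Nanog and Dppa5a were below the limit of detection in both. The part that any of these cells play in the levels below was not tested.

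Ribosomal protein mRNAs were more abundant in iSP and iNP than in their E11.5 equivalents, and hardly so in iUB. The values of the 84 genes were added up in each library. The sums were 34820, 29172, 36252 and 48509 in the E11.5 SP libraries and 69395, 55833, 57856 and 60638 in iSP, so that the lowest iSP library lay above the highest E11.5 SP library. In E11.5 NP they were 41859, 47107, 44553 and 43439, and in iNP 61806, 97892, 55316 and 58241, where replicate 2 stood far above the other 3. In E11.5 UB they were 40439, 45132, 41781 and 39651, and in iUB 60822, 44230, 38629 and 44918, so that these groups overlapped. The ratio of the group means was 1.64 for SP, 1.54 for NP and 1.13 for UB, and 1.61, 1.36 and 1.17 against E12.5, the last being 1.23 without E12.5 UB replicate 1. Large-subunit genes had ratios of 1.58, 1.48 and 1.10 and small-subunit genes 1.71, 1.64 and 1.16 against E11.5 (SP, NP and UB). Of all reads on genes, ribosomal protein genes took 3.52% ± 0.724 in E11.5 SP and 6.12% ± 0.507 in iSP, 4.35% ± 0.194 in E11.5 NP and 7.14% ± 2.08 in iNP, and 4.15% ± 0.305 in E11.5 UB and 4.84% ± 1.0 in iUB (SD, n = 4 each). A sum over genes chosen by name was given no test. A higher share of mRNA per library cannot be told apart from less of other mRNA in the cells.

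**Figure D1:**
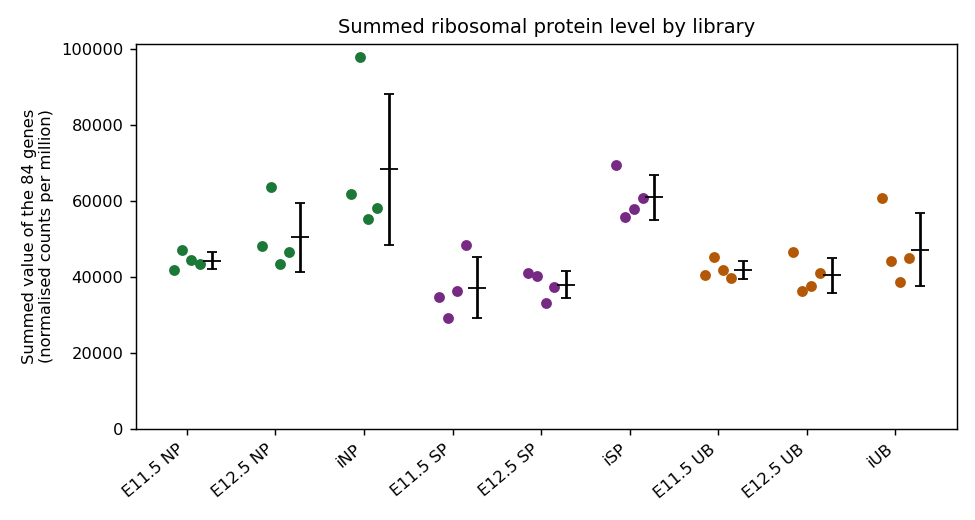
Summed normalised CPM of the 84 ribosomal protein genes (linear y axis from 0) in each of the 36 libraries by group, in the order of the replicate number, with the mean and SD of each group beside the points. The 4 iSP libraries (55833 to 69395) lie above all SP libraries from kidneys, iNP replicate 2 reaches 97892, and 3 of the 4 iUB libraries lie within the range of the ex-fetu UB groups.

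Levels per kilobase of transcript, averaged over all 36 libraries, spanned a wide range between the members. Each length was that of a single coding transcript of the gene, for instance 3706 bases for Rps20 and 2045 for Rpl5. The ranking depends on that choice. The median over the 83 members with a coding transcript was 687 normalised CPM per kilobase, with quartiles of 406 and 987. By the mean over the 36 libraries Rpl8, a core large-subunit protein, was highest (1803 per kilobase), followed by Rps15 (1660), Rpl32 (1647), Rplp1 (1609) and Rps9 (1511). Rpl8 was not first in every group, as the highest group mean was 2580 for Rps15 and 2561 for Rpl8. Of these 83, and apart from 3 paralogues near the limit of detection, Rpl24 (35.9), Rpl7l1 (53.8) and Rpl29 (112) were lowest. Rpl6l, for which no coding transcript was matched, was not ranked, and its group means lay between 2.94 and 6.41 normalised CPM. Rpl7l1 is a nucleolar assembly factor related to Rpl7 and not a constant part of the ribosome. Rpl24 and Rpl29 each have an abundant copy, as Gm9385 reached 36.0% of the level of Rpl24 over the 36 libraries and Gm8210 33.8% of that of Rpl29. The tissue-restricted paralogues were near the limit of detection. Rpl3l, known from heart and skeletal muscle, had reads in 24 of 36 libraries and at most 40 reads, which were in E12.5 SP replicate 1. Rpl10l and Rpl39l, known from testis, had reads in 8 and 14 libraries and at most 8 and 13 reads. These 3 genes did not pass the filter on low values (a value of 1 or more in 4 or more of 8 libraries), so that 81 members were tested.

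Compared with E11.5 SP, 73 of 81 ribosomal protein genes were higher in iSP and 1 was lower, with a median difference of 0.78. Compared with E11.5 NP, 65 were higher in iNP and 2 lower, with a median of 0.66. In iUB against E11.5 UB only 16 were higher and 4 lower, with a median of 0.12. These are calls of limma's moderated test at an adjusted p-value under 0.05 over all genes tested. Of all genes, 67.6% were called in the SP comparison (35.5% higher and 32.1% lower), 64.7% in the NP comparison (35.5% higher and 29.2% lower) and 60.5% in the UB comparison (32.1% higher and 28.5% lower), and the median difference of all genes was 0.04, 0.07 and 0.02. The share of members called was thus above that of all genes for SP and NP, and in one direction, and below it for UB. With upper-quartile scaling the split in the UB comparison was 11 higher and 5 lower. Without iUB replicate 1 it was 16 higher and 12 lower with a median of -0.00, and without iUB replicate 3 it was 26 higher and 4 lower with a median of 0.22. After the dependence on transcript length and GC content had been taken out library by library, the median difference was 0.59 for SP, 0.31 for NP and 0.16 for UB.

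**Figure D2:**
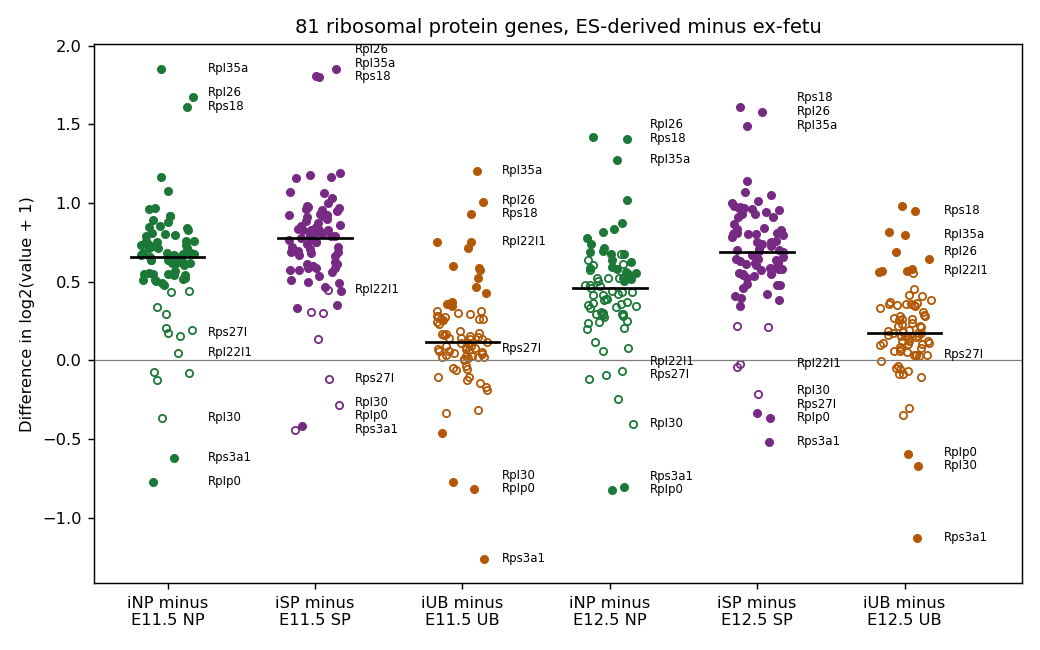
Difference in log2(value + 1) of each of the 81 tested ribosomal protein genes (points, spread sideways for legibility) between an ES-derived group and its E11.5 or E12.5 equivalent, filled where the adjusted p-value was under 0.05, with a bar at the median. The medians for iSP (0.78 and 0.69) and iNP (0.66 and 0.46) are above those for iUB (0.12 and 0.17), and Rpl35a, Rpl26 and Rps18 are the 3 highest in each E11.5 column.

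Rpl35a, a large-subunit gene mutated in some cases of Diamond-Blackfan anaemia, had the largest difference in NP and UB, and in SP was close behind Rpl26 (1.85). Rpl35a stood at 89.4, 79.7, 94.5 and 118 in E11.5 SP and at 379, 303, 297 and 363 in iSP, at 122, 131, 87.7 and 91.9 in E11.5 NP and at 398, 551, 291 and 354 in iNP, and at 99.9, 112, 131 and 79.8 in E11.5 UB and at 292, 230, 199 and 250 in iUB. No ES-derived library overlapped with its ex-fetu group. The difference was 1.81 ± 0.13 (SE, adjusted p = 2.8e-06) in SP, 1.85 ± 0.20 (adjusted p = 3.38e-05) in NP and 1.20 ± 0.16 (adjusted p = 0.000116) in UB. Adding the 14 copies of Rpl35a left it at 1.77, 1.79 and 1.16. It also differed from E12.5, by 1.49 in SP, 1.28 in NP and 0.79 in UB (1.01 without E12.5 UB replicate 1). Another 7 genes, taken without their copies, were called higher in all 3 types by more than 0.5 on the log2 scale. Rps20, at the mRNA channel of the small subunit, rose by 0.86 in iSP, 0.76 in iNP and 0.52 in iUB, and Rpl13 by 0.72, 0.67 and 0.57. Rpl32 rose by 0.97, 0.84 and 0.60, and Rps26, which contacts mRNA near the exit site, by 0.92 in iNP and 0.59 in iUB, and was called higher in iSP too. Rps18, Rpl26 and Rps2 were the remaining ones and are described with their copies. Rps26 also has a copy that was lower in ES-derived cells, Rps26-ps1, with means of 59.7 in E11.5 UB and 3.65 in iUB. With its 2 copies Rps26 came to 667 ± 28.5 in E11.5 UB and 931 ± 202 in iUB (mean ± SD, n = 4), beside 607 ± 20.9 and 928 ± 200 alone. The sums with copies were 661 ± 158 in E11.5 SP and 1262 ± 130 in iSP, and 809 ± 60.3 in E11.5 NP and 1416 ± 459 in iNP.

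Lower levels in ES-derived cells were found for few members in these 3 comparisons, among them Rplp0 in all 3, Rps3a1 in iNP and iUB, and Rpl30 in iUB. For Rplp0 and Rps3a1 the copies moved the opposite way. Rplp0 measured 1736, 2068, 2059 and 1784 in E11.5 NP and 1055, 1509, 968 and 1005 in iNP, and in UB 1524, 1682, 1473 and 1552 against 1163, 854, 731 and 829, without overlap in either case. Rplp0 differed by -0.77 ± 0.15 in NP (adjusted p = 0.00144), -0.82 ± 0.13 in UB (adjusted p = 0.000478) and -0.42 ± 0.16 in SP (adjusted p = 0.0398). The call in SP was lost, with differences between -0.28 and -0.43, when any of 5 libraries was left out (replicates 3 and 4 of E11.5 SP and replicates 2, 3 and 4 of iSP). Its copy Gm8730 stood at 29.4, 7.69, 7.51 and 25.1 in E11.5 NP and at 336, 499, 344 and 318 in iNP. Gm9625, another copy, stood at 6.04, 8.12, 7.89 and 9.44 in E11.5 NP and 237, 331, 220 and 219 in iNP. Both were higher in all ES-derived libraries than in every ex-fetu library, by 4.57 and 4.82 in NP, 4.41 and 4.74 in SP and 4.17 and 4.68 in UB. Rplp0 with its 3 copies at 95% identity came to 1941 ± 164 in E11.5 NP and 1785 ± 394 in iNP, 1383 ± 320 in E11.5 SP and 1587 ± 155 in iSP, and 1586 ± 86.2 in E11.5 UB and 1412 ± 315 in iUB (mean ± SD, n = 4). The differences of these sums were -0.14 (adjusted p = 0.435), 0.22 (adjusted p = 0.245) and -0.19 (adjusted p = 0.267), and none was called.

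The same pattern was seen for Rps3a1 and its copy Rps3a3. Rps3a1 stood at 627, 718, 710 and 640 in E11.5 UB and at 367, 259, 243 and 264 in iUB, a difference of -1.26 ± 0.13 (adjusted p = 1.86e-05). In NP it went from 500, 738, 710 and 678 to 382, 648, 336 and 377, a difference of -0.62 ± 0.21 (adjusted p = 0.0236) that was not called when any 1 of 6 libraries was left out (replicates 2, 3 and 4 of E11.5 NP and 1, 3 and 4 of iNP, with values between -0.60 and -0.52). In SP the difference was -0.44 ± 0.19 (adjusted p = 0.0592). Rps3a3 stood at 61.8, 3.02, 3.11 and 3.15 in E11.5 NP and at 417, 738, 369 and 388 in iNP, at 49.6, 3.53, 3.85 and 3.88 in E11.5 SP and at 500, 397, 408 and 502 in iSP. It stood at 14.4, 4.02, 7.33 and 24.3 in E11.5 UB and at 385, 311, 280 and 340 in iUB, and its mean in iUB was 116% of that of Rps3a1. In E12.5 UB its values were 120, 3.36, 3.20 and 3.43, with the high value in the library that stands apart. Rps3a1 with its 4 copies came to 682 ± 77.7 in E11.5 NP and 948 ± 331 in iNP, 578 ± 150 in E11.5 SP and 884 ± 114 in iSP, and 695 ± 38.3 in E11.5 UB and 637 ± 106 in iUB. The direction in SP and NP turned when the copies were added: 0.64 in SP (adjusted p = 0.00969, called) and 0.42 in NP (adjusted p = 0.0906), while UB gave -0.14 (adjusted p = 0.32). Rpl30, a large-subunit gene, kept its lower level in iUB with its 10 copies (-0.77 ± 0.12 alone, adjusted p = 0.000285, and -0.67 with copies, adjusted p = 0.000796).

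The opposite pattern was found for Rps18, Rpl26 and Rps2, of which a copy that was well expressed in ex-fetu cells was much lower in ES-derived cells. Rps18, at the head of the small subunit, had 310, 350, 312 and 306 in E11.5 NP and 878, 1519, 832 and 819 in iNP. Gm10260 had 203, 231, 209 and 211 in E11.5 NP and between 1.03 and 1.20 in iNP, and at most 1.26 in any ES-derived library against at least 125 in any ex-fetu library. Rps18 alone differed by 1.61 ± 0.19 in NP (adjusted p = 5.11e-05), 1.80 ± 0.13 in SP (adjusted p = 3.15e-06) and 0.93 ± 0.14 in UB (adjusted p = 0.0003). With its 4 copies the difference was 0.88 (adjusted p = 0.00232), 1.11 (adjusted p = 7.72e-05) and 0.25 (adjusted p = 0.152), so that the call in UB was lost. Rpl26, near the exit tunnel, had 219, 197, 211 and 278 in E11.5 NP and 679, 1060, 589 and 623 in iNP, with differences of 1.67 ± 0.19 in NP, 1.85 ± 0.24 in SP and 1.01 ± 0.14 in UB. Gm15772 lay between 2.23 and 11.3 in the ES-derived libraries and at 48.5 or more in the E12.5 ones. With its 4 copies the differences of Rpl26 were 0.94, 1.02 and 0.25, of which the last was not called (adjusted p = 0.156). Rpl26 and Gm15772 were also unequally split among ex-fetu samples of one group: E12.5 NP replicate 1 had 142 for Rpl26 and 266 for Gm15772, and replicate 2 had 513 and 86.3. The same was seen in E12.5 SP, where replicate 1 had 138 and 221 and replicate 2 had 329 and 53.0. Rps2, at the entry of the mRNA channel, rose by 0.96 in iNP, 0.92 in iSP and 0.75 in iUB, and with its 18 copies by 0.75, 0.68 and 0.50, all called. Rps2-ps13 had at least 63.0 in each ex-fetu library and at most 2.36 in ES-derived ones.

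**Figure D3:**
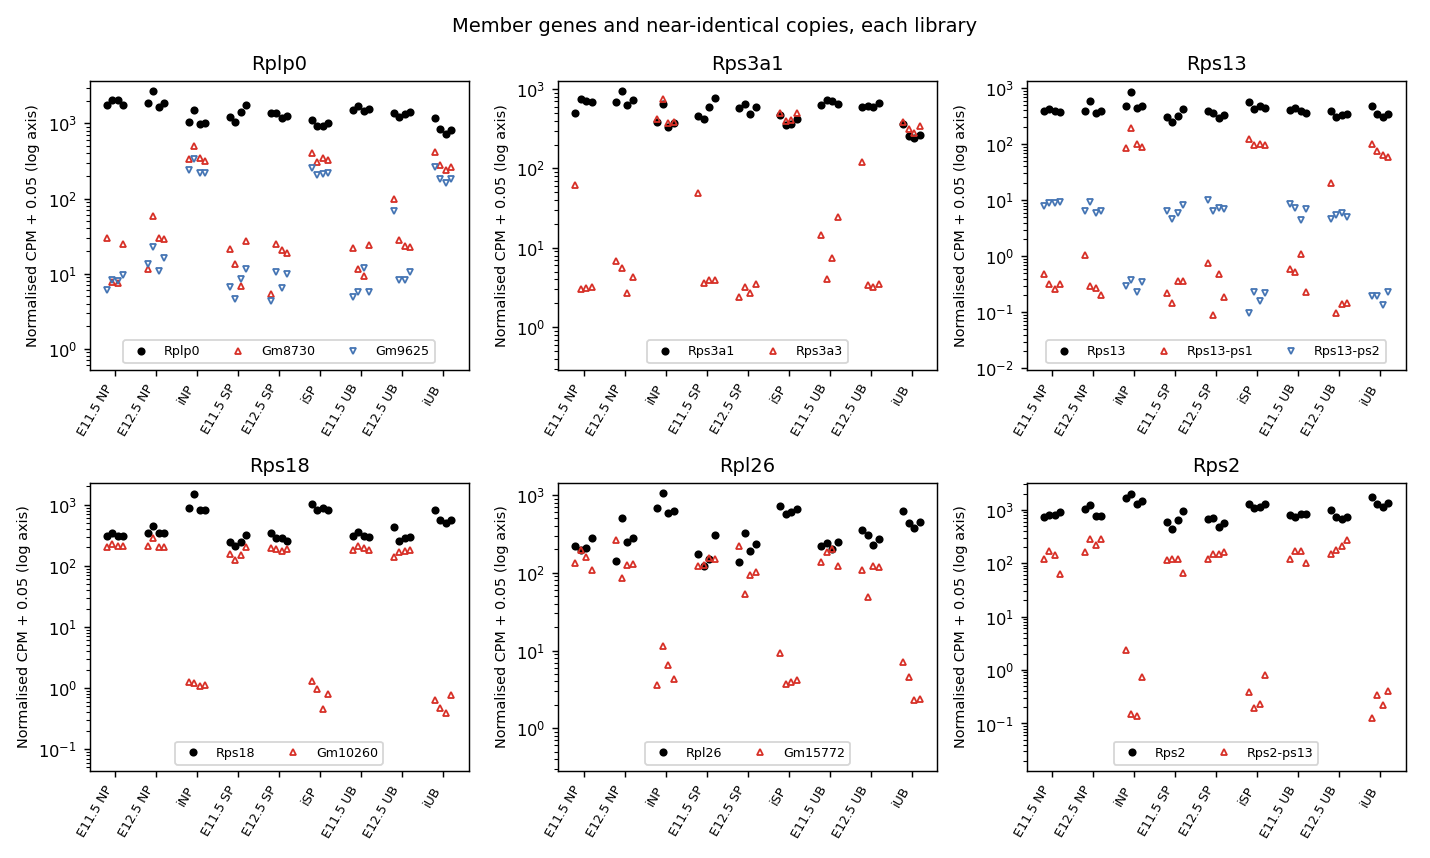
Normalised CPM (plus 0.05, log axis) of 6 ribosomal protein genes (black) and of near-identical copies (coloured triangles) in each of the 36 libraries by group. The copies of Rplp0 and Rps3a1 and Rps13-ps1 are highest in the ES-derived groups and raised in E12.5 UB replicate 1, Rps3a3 also in E11.5 NP replicate 1 (61.8) and E11.5 SP replicate 1 (49.6) and Gm8730 in E12.5 NP replicate 2 (57.9), whereas Gm10260, Gm15772, Rps2-ps13 and Rps13-ps2 are low in the ES-derived groups.

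By a rule set after the values had been seen (means at least 8-fold apart between ES-derived and E11.5 cells in all 3 types, and at least 5 on the high side), 13 of 490 copies and -ps genes (2.65%) switched between the sources, where 51 of the 22761 table genes (0.224%) met the same rule. The copies were not tested against the other genes. Of these, 7 were high in ES-derived cells, among them Gm8730, Gm9625 and Rplp0-ps1 of Rplp0, Rps3a3, Rps13-ps1 and Gm10036 of Rpl11. The other 6 were low in them: Gm10260, Gm15772, Rps2-ps13, Rps13-ps2, Rps26-ps1 and Gm10263 of Rps28. Rps13, a small-subunit gene, had copies of both kinds. Rps13-ps1 was at or below 1.06 in all E11.5 libraries and between 59.99 and 196 in all 12 ES-derived ones, and Rps13-ps2, whose coding sequence equals that of Rps13, was between 4.34 and 9.27 in E11.5 libraries and at most 0.328 in ES-derived ones. Rps13 alone rose by 0.57 in iSP (adjusted p = 0.00776), and differed by 0.44 in NP (adjusted p = 0.0648) and -0.17 in UB (adjusted p = 0.314). With its copies it was 0.83, 0.67 (adjusted p = 0.0124) and 0.08. Rps26-ps1 also varied among ex-fetu libraries of 1 group, with 121, 88.4, 3.15 and 91.8 in E12.5 NP, 87.0, 64.4, 3.59 and 98.5 in E12.5 SP and 49.3, 45.7, 4.48 and 81.5 in E12.5 UB, the low value being replicate 3 each time.

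Most copies were small beside their member. Of 439 copies, 329 stayed below 1% of the member's mean in every group, and 21 copies of 19 members passed 10% in at least 1 group. All copies together came to between 4.69% and 5.01% of the members' sum in the ex-fetu groups and to between 5.76% and 5.85% in the ES-derived groups. The genes named -ps alone came to between 1.88% and 2.11% in the ex-fetu groups and to between 1.43% and 1.47% in the ES-derived groups. As shares of the members' sum, the names and the sequences thus gave opposite directions. Against E11.5, the sums themselves did so only in UB. The mean -ps sum was higher in iSP (898 against 701) and iNP (1004 against 935) and lower in iUB (675 against 853). The libraries overlapped each time. The mean sum of all copies was higher in iSP (3518 against 1741), iNP (3975 against 2213) and iUB (2768 against 2095). Of the -ps genes, 66 were higher and 8 lower in iSP among 100 tested, 42 higher and 8 lower in iNP among 104, and 10 higher and 9 lower in iUB among 96, where 67.6%, 64.7% and 60.5% of all genes were called. Their median differences were 0.63, 0.42 and 0.02. The median for NP was 0.25 without iNP replicate 2, and that for UB was -0.02 without iUB replicate 1 and 0.13 without E11.5 UB replicate 2. The split for NP was 12 higher and 10 lower after quantile normalisation. Without iSP replicate 1 the number of -ps genes called in iSP was 48 instead of 74, and with the length and GC trend removed it was 41. With copies added to each member, 75 members were higher and 0 lower in iSP, 64 higher and 0 lower in iNP, and 13 higher and 1 lower in iUB, with medians of 0.79, 0.67 and 0.11.

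**Figure D4:**
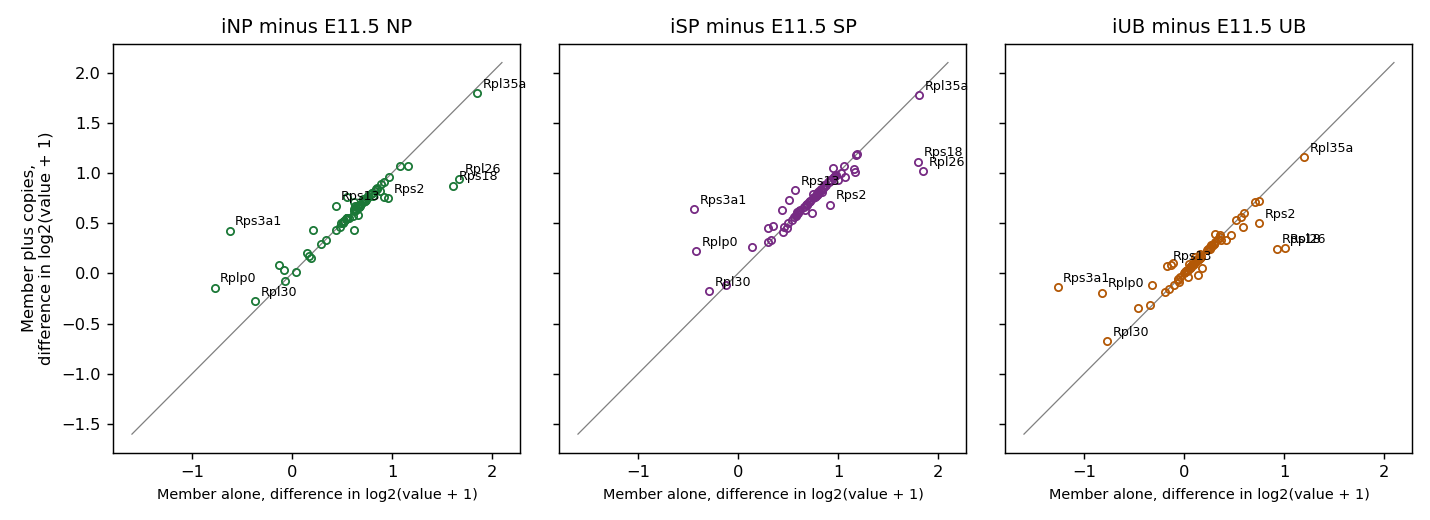
Difference between ES-derived and E11.5 cells in log2(value + 1) for each tested ribosomal protein gene alone (x axis) and with its copies of at least 95% identity (y axis), with the line of equality. Most genes lie on the line, Rps3a1 and Rplp0 lie above it (-1.26 alone and -0.14 with copies for Rps3a1 in iUB) and Rps18, Rpl26 and Rps2 below it.

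The stalk proteins, which recruit translation factors, gave unlike values when taken without their copies. Rplp2 was higher in iSP (0.59 ± 0.18, adjusted p = 0.0155) and iNP (0.67 ± 0.20, adjusted p = 0.0145), Rplp1 was called in none of the comparisons (0.30 in SP, -0.13 in NP and -0.13 in UB), and Rplp0 was lower as described. With copies Rplp1 gave 0.46 in SP (adjusted p = 0.0389, called), 0.08 in NP (adjusted p = 0.771) and 0.08 in UB (adjusted p = 0.725), Rplp0 was not called in any, and Rplp2 was called in SP (0.61) and NP (0.67). Paralogues were set beside their parents, with no test of the one against the other. Rpl22l1, which stands in for Rpl22, was at 46.1, 45.2, 44.4 and 46.7 in E11.5 UB and at 87.9, 70.2, 71.1 and 81.5 in iUB, a difference of 0.75 ± 0.09 (adjusted p = 4.34e-05), while Rpl22 did not differ beyond its error there (0.00 ± 0.11). In iNP and iSP Rpl22 rose by 0.66 and 0.83, and Rpl22l1 differed by 0.04 (adjusted p = 0.824) and 0.45 (adjusted p = 0.0602). Rps27l differed by 0.07, -0.12 and 0.17 in UB, SP and NP, none of them called, beside 0.08, 0.80 and 0.68 for Rps27, of which the last 2 were called. Rpl7l1 rose by 0.49 in iSP and differed by 0.19 in NP (adjusted p = 0.119) and -0.05 in UB (adjusted p = 0.606), and Rpl7 by 0.56 in iSP and 0.52 in iNP. Rpl6l and Rpl6 are 98.7% identical over their aligned sequence, so that the split of reads between them is uncertain, and both rose in iSP (0.69 and 0.59).

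Some members are also known from disease or from roles outside translation. Rpl5 and Rpl11, which with the 5S RNA signal failed ribosome assembly, rose in iSP by 0.83 and 0.44 and in iNP by 0.55 each, and differed in iUB by 0.02 and -0.32 (adjusted p = 0.909 and 0.0623). The call of Rpl11 in SP was lost without any of replicates 1 and 2 of E11.5 SP and 1 and 4 of iSP (0.34 to 0.42). With its copies Rpl11 gave 0.63 in SP (adjusted p = 0.00368), 0.76 in NP (adjusted p = 0.00412) and -0.11 in UB (adjusted p = 0.486). The call of Rpl5 in NP was lost without replicate 1 or 4 of E11.5 NP (0.50 and 0.54). Rps19, the gene most often mutated in Diamond-Blackfan anaemia, rose by 1.03 in iSP, 0.81 in iNP and 0.37 in iUB, where the call (adjusted p = 0.0463) was lost when any of 5 libraries was left out (replicates 1, 3 and 4 of E11.5 UB and 2 and 4 of iUB, 0.34 to 0.41). Rpsa, which is also a laminin receptor, rose by 0.74 in iSP and 0.62 in iNP and differed by 0.14 in iUB (adjusted p = 0.37). With its copies Rpsa was not called in NP (0.43, adjusted p = 0.0616). Rps6, the target of the S6 kinases, rose by 0.92 in iSP and 0.89 in iNP and differed by 0.05 in iUB.

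The smaller difference in iUB was tested as a difference of differences. Between UB and SP, 56 of 81 members differed, all of them with the smaller value in UB, and the median was -0.62, where 47.4% of all genes were called. Rpl22 (-0.82 ± 0.18, adjusted p = 0.00133), Rpl17 (-0.92, adjusted p = 0.00111) and Rpl36a (-1.06, adjusted p = 0.00135) had the smallest p-values. Between UB and NP 27 differed, 26 lower in UB and Rpl22l1 higher (0.71 ± 0.19, adjusted p = 0.00567), with a median of -0.49 (-0.29 without iNP replicate 2), against 47.1% of all genes. Between NP and SP 1 differed (Rpl29, -0.52), against 29.3% of all genes. The 3 tests share the samples of their groups. The UB and SP count was 36 without iSP replicate 1 or iUB replicate 3 and 37 without E11.5 UB replicate 2. The UB and NP count was 59 without iUB replicate 1, 8 and 13 without iUB replicates 3 and 2, 14 without iUB replicate 4, 9 without E11.5 UB replicate 2, and 15 or 16 without replicate 1, 3 or 4 of E11.5 NP. The NP and SP count was 14 without iNP replicate 2 and 0 without replicate 2 or 4 of E11.5 NP, 1, 2 or 3 of E11.5 SP, 3 or 4 of iNP, or 1, 2 or 3 of iSP. iUB comes from another ES line and another protocol than iNP and iSP, which cannot be told apart from the cell type.

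Against the E12.5 groups, iSP had 73 members higher and 3 lower (Rps3a1, Rps27l and Rplp0), with a median of 0.69, and 62.1% of all genes were called. iNP had 25 higher and 2 lower (Rps3a1 and Rplp0), with a median of 0.46, among 44.3% of all genes. This count of 27 was 47 without E12.5 NP replicate 2, whose ribosomal protein sum of 63736 was the highest of its group, and 14, 10, 10 and 15 without replicates 1, 3 and 4 of E12.5 NP and replicate 1 of iNP. iUB had 10 higher and 3 lower (Rps3a1, Rpl30 and Rplp0), with a median of 0.17, among 44.4%, and 24 were called without the E12.5 UB library that stands apart (21 higher and 3 lower, with a median of 0.25). The median for UB was 0.06 without iUB replicate 1 and 0.27 without iUB replicate 3, and that for NP was 0.28 without iNP replicate 2. Rps18 differed from E12.5 by 1.61 in SP, 1.41 in NP and 0.95 in UB, and Rpl26 by 1.58, 1.42 and 0.69. Without E12.5 UB replicate 1 the UB values were 1.11 for Rps18 and 0.79 for Rpl26, and -1.15, -0.68 and -0.58 for Rps3a1, Rpl30 and Rplp0 beside -1.13, -0.67 and -0.60 with it. With copies added, Rps18 gave 0.90 in SP, 0.72 in NP and 0.32 in UB (adjusted p = 0.13, not called), and Rpl26 gave 0.92, 0.71 and 0.26 (adjusted p = 0.212, not called). The lower values of Rps3a1 and Rplp0 were not kept with copies either. Rps3a1 turned to 0.60 in SP (called) and 0.29 in NP (adjusted p = 0.315) and gave -0.04 in UB (adjusted p = 0.793). Rplp0 turned to 0.27 in SP (called) and gave -0.21 in NP (adjusted p = 0.411) and -0.02 in UB (adjusted p = 0.94). Rpl30 in UB stayed lower with its copies (-0.58, called). Between the ex-fetu ages few members changed. In SP 0 of 81 were called by limma (0 at an unadjusted p under 0.05, 0 by edgeR and 0 by DESeq2), beside 8.52% of all genes. In NP 1 was called, Rpl38 (0.47 ± 0.11, adjusted p = 0.0384, from 130, 137, 129 and 133 to 186, 222, 161 and 170), beside 6.34%, and 18 members had an unadjusted p under 0.05. Rpl38, which is needed for the translation of Hox mRNAs, was not called without any 1 of the E11.5 NP libraries or without replicate 3 or 4 of E12.5 NP, and 2 members were called without replicate 2 of E12.5 NP. In UB the direction rests on the titles, since the stated cell source gives the opposite ages. By the titles 3 were lower at E12.5, Rps28 (-0.52), Rpl29 (-0.37) and Rplp0 (-0.22), beside 26.5%. That count was 18 without E12.5 UB replicate 1 (where these 3 differed by -0.56, -0.42 and -0.24), 7 without E11.5 UB replicate 3, and 1 without replicate 1 or 2 of E11.5 UB or replicate 2 of E12.5 UB.

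Between cell types of one source, the members called between ex-fetu NP and SP were all higher in NP, while their number depended on the fit and on single libraries. At E11.5, 11 members were higher in NP and 0 lower, with a median of 0.27, beside 43.1% of all genes. Rpl10a, at 0.51 ± 0.10 (adjusted p = 0.00234), and Rps28 (0.62, adjusted p = 0.00268) had the smallest p-values. Without E11.5 SP replicate 4, whose sum of 48509 was the highest of its group, 63 members were called (and never more than 6201 table genes when 1 library was left out), and without any 1 other library between 4 and 8. The median was 0.17 without E11.5 SP replicate 2. At E12.5, 21 were higher in NP and 0 lower, with a median of 0.36, beside 34.8%, led by Rpl12 (0.62 ± 0.14, adjusted p = 0.00684). NP and SP samples of the same number deviated together at E12.5, and a fit with that pairing as a block called 64 members, all higher in NP, beside 57.8% of all genes in that fit. Leaving out 1 library gave between 5 and 24 of the 81 (5 and 6 without replicates 3 and 4 of E12.5 SP, 13 without replicate 2, 11 and 10 without replicates 1 and 4 of E12.5 NP). The SP libraries at both ages carried the haemoglobin genes given above. UB and SP differed in 5 members at E11.5 (Rps28, Rpl29, Rps29, Rpl6l and Rpl36a, all higher in UB, beside 53.6% of all genes). Without E11.5 SP replicate 4 it was 59, and without any of the other libraries between 2 and 4. At E12.5 UB and SP differed in 0 members by limma (4 at an unadjusted p under 0.05, 0 by edgeR and 1 by DESeq2), beside 46.4%, and in 1 or 2 members without replicate 1, 2 or 3 of E12.5 SP or replicate 1 of E12.5 UB.

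UB had 2 members higher and 12 lower than NP at E11.5 (beside 60.2% of all genes), with Rpl22l1 lowest by p-value (-0.56 ± 0.08, adjusted p = 0.000103), and 22 were called without E11.5 NP replicate 1 and 9 without replicate 2 or 3 of E11.5 NP or replicate 1 of E11.5 UB. At E12.5 UB had 3 lower than NP, Rpl10a (-0.39), Rplp0 (-0.57) and Rplp1 (-0.48), beside 32.7%, and 19 were called without the E12.5 UB library that stands apart (Rpl10a at -0.42 and Rplp0 at -0.58 among them, but not Rplp1, at -0.43 with an adjusted p of 0.0984), 7 without E12.5 NP replicate 3 and 1 without E12.5 UB replicate 2. The ES-derived iNP and iSP differed in 1 member, Rps2 (0.41 ± 0.14, adjusted p = 0.0498), beside 30.7%, with 2 members at an unadjusted p under 0.05. That count was 4 and 2 without replicates 2 and 3 of iNP and 0 without any other single library. Where ES-derived and ex-fetu comparisons share a group, their values are not independent of each other.

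Genes that work with ribosomal proteins did not all follow them. Their counts stand beside the shares of all genes higher and lower, which were 32.1% and 28.5% in iUB, 35.5% and 32.1% in iSP and 35.5% and 29.2% in iNP. The factors that assemble ribosomes in the nucleolus were mostly lower in ES-derived cells: of 81 tested, 52 were lower and 4 higher in iUB (median -0.36), 45 lower and 11 higher in iSP (-0.28) and 44 lower and 4 higher in iNP (-0.32). Ddx21, a nucleolar helicase, fell from a mean of 297 to 119 in iSP. Initiation factors were lower more often than higher (18 and 3, 14 and 8, and 12 and 6 of 29 in UB, SP and NP). Elongation factors, whose mRNAs also begin with a pyrimidine tract, had medians above that of all genes: of 8, 5 were higher and 0 lower in iSP (median 0.50), 2 and 0 in iNP (0.35) and 2 and 1 in iUB (0.20). Eef1g, a subunit of the complex that reloads the factor carrying tRNA, differed by 1.13 in SP, 0.97 in NP and 0.41 in UB, and Eef1b2 by 0.83, 0.73 and 0.48. Regulators of ribosomal protein synthesis were more often lower than higher (18 of 29 in iUB, 13 in iSP and 19 in iNP, with 3, 5 and 2 higher). Larp1, which binds pyrimidine tracts, differed by -0.88 in UB, -0.94 in SP and -1.08 in NP, and Yy1 by -1.54, -1.09 and -1.04. Host genes of small nucleolar RNAs, which are also of the pyrimidine-tract class, had no common direction over the types, with 6 of 11 higher and 0 lower in iUB (median 0.37), 2 higher and 3 lower in iSP and 2 higher and 5 lower in iNP. Chaperones of ribosomal proteins were lower for 8, 10 and 9 of 17 in UB, SP and NP, and higher for 1 each time. The 19 genes mutated in Diamond-Blackfan anaemia are nearly all members, and 18 were higher in iSP and iNP and 5 in iUB.

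**Figure D5:**
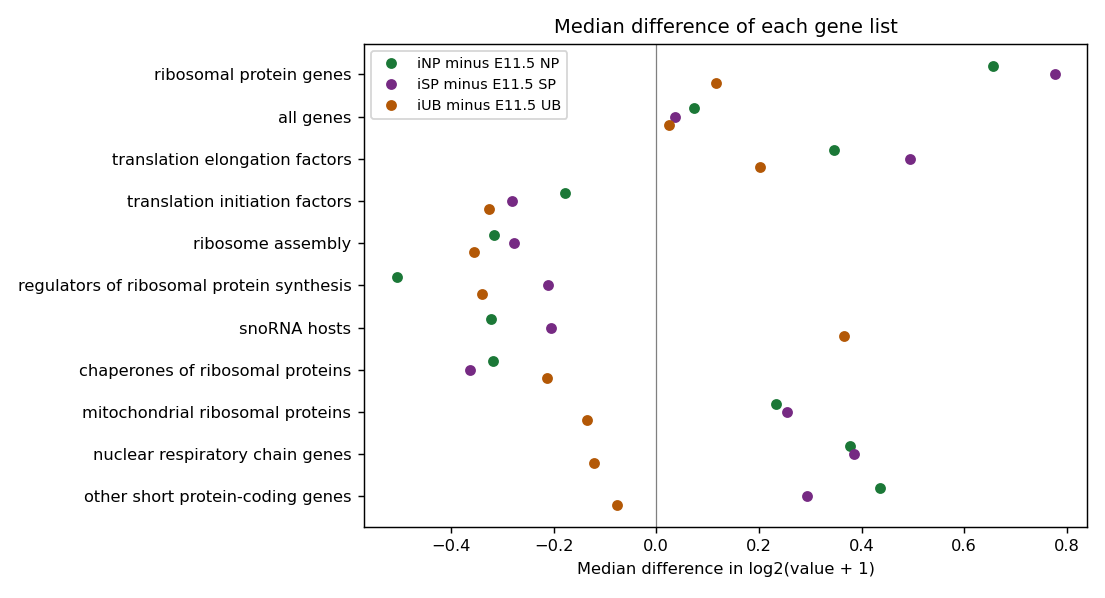
Median difference in log2(value + 1) between ES-derived and E11.5 cells for the ribosomal protein genes, all genes tested and related gene lists, with 1 point for each cell type. Ribosomal protein genes stand at 0.78 (iSP), 0.66 (iNP) and 0.12 (iUB), elongation factors are above 0 in each type, and assembly factors are below 0 in each type.

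Ribosomal proteins whose names lie outside the rule gave mixed values. Fau, which encodes a small-subunit protein fused to a ubiquitin-like part, rose by 0.69 in iSP and 0.69 in iNP and differed by 0.02 in iUB, like most members. Rpl36al differed by 0.24, 0.32 and -0.28 in SP, NP and UB, none of them called. Mitochondrial ribosomal proteins, which make up a separate ribosome, were higher for 38 of 76 and lower for 9 in iSP (median 0.25), 29 and 11 in iNP (0.23) and 10 and 28 in iUB (-0.13). Nuclear respiratory chain genes, taken as another group of short and abundant mRNAs, had 44 of 77 higher and 3 lower in iSP (0.38), 32 and 3 in iNP (0.38) and 6 and 16 in iUB (-0.12). The members have short transcripts, with a median of 1076.5 bases for the longest transcript of each, against 3276 for the protein-coding genes of the table. Other protein-coding genes with transcripts of at most 1000 bases had medians of 0.29 in SP, 0.44 in NP and -0.08 in UB, and of 0.12, 0.11 and -0.04 once the trend with length and GC content had been removed. The members' medians changed from 0.78 to 0.59 in SP, from 0.66 to 0.31 in NP and from 0.12 to 0.16 in UB with that trend removed. The part of transcript length in the differences was not tested beyond these values.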

How the data were processed

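RNA was measured by stranded mRNA sequencing in 36 samples of 9 groups, taken from the labels. The authors used Cutadapt for trimming, STAR for alignment and edgeR for normalisation, and deposited a signal table of CPM (reads scaled to a common library size) with normalisation factors applied. The counter, the filter and the read length are not given in the sources used here. The submitters' notes name GRCh38, whereas 99.5% of the table's gene identifiers are in the mouse annotation GENCODE vM21 (GRCm38), which gave the positions and transcripts. Tables of the authors' comparisons (group means, log2 fold changes, p-values and false discovery rates) were not used.

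Whole reads were recovered by dividing each value by the smallest positive value of its library, and 100% came out whole within 0.001. The main test was limma 3.58.1 with a mean trend on log2(value + 1), on the 8 libraries of each comparison, for genes at 1 or more in at least 4 of them, with Benjamini-Hochberg adjustment over all genes tested and a threshold of 0.05. Differences of differences were fitted in limma on the 4 groups concerned. Copies were found with BLAST 2.17.0 (at least 95% identity over at least 80% of the coding sequence). edgeR 4.0.16 (quasi-likelihood) and DESeq2 1.42.0 on recovered reads, other scalings, filters, pseudocounts, a replicate block, removal of the length and GC trend, addition of copies and the omission of each library were alternatives. The scripts were tested on simulated data. The limit of 3 reads covers counting error only.

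Same-numbered samples deviated together in 1 of the comparisons, E12.5 NP against SP, with correlations between 0.54 and 0.70 for all 4 pairs, each sample correlating best with its own number. The labels do not say what the number stands for. They also name no sequencing date or batch, and p-values measure the spread between these samples. The members and the gene lists were chosen with earlier results of these data known. The genes named were, in each comparison with E11.5, the 4 members and 3 -ps genes that ranked first by p-value among those higher and among those lower, the paralogues ending in l or l1 with their parents, the stalk genes, Rpsa, Rpl5, Rpl11 and Rps19, the highest and the lowest member, members with a -ps gene above 10% of their level, and members called one way in all 3 types by over 0.5. Some genes that met this rule are not reported here. Other genes, the switching copies and the sequences shown were chosen after their values were seen.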

Additional observations from a re-analysis of the deposited data

Results flagged for a closer look

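In groups of 4, a library was singled out where its gap to the nearest other library exceeded Dixon's critical share of the group's range, which chance gives in about 1 of 20 groups, and 21 of the 169 groups of values examined had one. Of these, 12 lay in iNP replicate 2, which was the highest library of its group in its summed ribosomal protein level (97892) and in Rps18 (1519), Rps26 (2089), Rpl22l1 (97.2), Rplp0 (1509), Rps3a1 (648), Rpl30 (213), Rps13 (848), Rpsa (2413), Rps19 (1238), Rpl5 (935) and Rps13-ps1 (196), all in normalised CPM. E12.5 NP replicate 2 stood apart in Rps18 (449), Rps13 (584) and Rpsa (1667), and E11.5 NP replicate 2 in Rps18 (350). The remaining ones were Rps2-ps13 in E11.5 SP replicate 4 (66.4), Rps13-ps2 in E12.5 SP replicate 1 (10.2), Rps13-ps1 in E12.5 UB replicate 1 (20.6), Rps19 in iSP replicate 1 (931) and Rps3a1 in iUB replicate 1 (367).

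The difference between ES-derived and E11.5 cells itself differed between cell types by limma's test of the difference of differences (adjusted p-value under 0.05) for these named members. UB minus SP gave -0.87 for Rps18, -0.82 for Rps3a1, -0.40 for Rpl4, -0.60 for Rpsa, -0.66 for Rps19, -0.81 for Rpl5, -0.75 for Rpl11, -0.61 for Rpl35a, -0.84 for Rpl26 and -0.74 for Rps13 on the log2 scale. UB minus NP gave -0.68 for Rps18, 0.71 for Rpl22l1, -0.87 for Rpl11 and -0.67 for Rpl26. Values for Rps18, Rps3a1, Rpl26, Rpl11 and Rps13 are those of the member without its copies.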

How the results depend on the processing

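Counts of members called are given as the main count, then the range when 1 library was left out, then the alternatives that moved it by over 1.5 times. iSP against E11.5 SP (74, 71 to 77), iNP against E11.5 NP (67, 58 to 74), iSP against E12.5 SP (76, 74 to 77) and E12.5 against E11.5 SP (0, 0 to 0) were moved by none. iUB against E11.5 UB (20, 16 to 30) gave 35 with quantile normalisation and 13 with a size of at least 0.5. iUB against E12.5 UB (13, 10 to 24) gave 22 with the length and GC trend removed. iNP against E12.5 NP (27, 10 to 47) gave 56 with all samples in one fit, 47 with quantile normalisation and 14 with no filter. E12.5 against E11.5 UB (3, 1 to 18) gave 0 in one fit, 9 with upper-quartile scaling, 5 with median-of-ratios scaling, 5 by edgeR, 9 by DESeq2 and 1 by size. E12.5 against E11.5 NP (1, 0 to 2) gave 0 in one fit, 3 with quantile normalisation, 0 with no filter, 8 by DESeq2, 0 by size and 3 with the trend removed. E11.5 NP against SP (11, 4 to 63) gave 38 quantile, 17 upper-quartile, 23 as plain CPM, 5 by size and 42 with the trend removed. E11.5 UB against SP (5, 2 to 59) gave 15 quantile, 12 as plain CPM, 3 with no filter, 1 by size and 8 with the trend removed. E11.5 UB against NP (14, 9 to 22) gave 2 in one fit, 1 by size and 56 with the trend removed. E12.5 NP against SP (21, 5 to 24) gave 32 in one fit, 44 quantile, 38 as plain CPM, 8 with no filter, 10 by size and 35 with the trend removed. E12.5 UB against SP (0, 0 to 2) gave 2 in one fit, 7 quantile, 4 as plain CPM, 1 by DESeq2, 7 with the trend removed, and 1 with -ps genes or with copies added. E12.5 UB against NP (3, 1 to 19) gave 11 in one fit, 7 quantile, 19 upper-quartile, 5 median-of-ratios, 15 by DESeq2, 1 by size and 52 with the trend removed. iNP against iSP (1, 0 to 4) gave 3 quantile, 2 as plain CPM, 2 by DESeq2, 3 with the trend removed, and 0 in one fit, with upper-quartile or median-of-ratios scaling, with no filter, by size, and with -ps genes or copies added. The -ps genes called gave, for UB (19, 13 to 27), 31 with no filter and 10 with a filter at 5, for SP (74, 48 to 77), 20 with a filter at 5 and 41 with the trend removed, and for NP (50, 36 to 50), 22 quantile and 19 with a filter at 5. Of the differences of differences, NP against SP (1, 0 to 14) gave 3 quantile and 20 with the trend removed, UB against SP (56, 36 to 71) was moved by none, and UB against NP (27, 8 to 59) gave 17 with the trend removed. The replicate block gave a count of 64 for E12.5 NP against SP, where the numbers pair the samples. In the other comparisons not every pair correlated over 0.1, although Rps26-ps1 was low in replicate 3 of all E12.5 groups, and the block gave 30 for iUB against E12.5 UB, 67 for iNP against E12.5 NP, 2 for E12.5 against E11.5 NP, 3 for E11.5 UB against SP, 1 for E12.5 UB against SP, 0 for iNP against iSP, and 17 for iUB against E11.5 UB. With copies added, Rps3a1 turned to 0.64 in SP and 0.42 in NP and Rplp0 to 0.22 in SP. The summed level of E11.5 NP was 46452 with copies, against 44239. Leaving out 1 library gave group means of the summed level between 43284 and 45033 in E11.5 NP, 40624 and 42451 in E11.5 UB, 33415 and 39860 in E11.5 SP, 45938 and 52749 in E12.5 NP, 36883 and 39478 in E12.5 SP, 38352 and 41730 in E12.5 UB, 58454 and 72646 in iNP, 58109 and 62630 in iSP and 42593 and 49990 in iUB. Among single genes, leaving out 1 library kept 998 values on their side of the threshold, while 40 lost and 18 gained a call. Apart from the addition of copies and the construction of each alternative, the cause of a shift was not tested. The summed level with copies was an alternative chosen after seeing the data. Depth limits only Rpl3l, Rpl10l, Rpl39l and low copies.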
